A study of Mus musculus with 4 samples.

Results

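Transcripts of 10 core circadian clock genes (Arntl, Clock, Per1, Per2, Per3, Cry1, Cry2, Nr1d1, Nr1d2 and Dbp) were examined in mouse alveolar macrophages, the phagocytes of the air sacs of the lung. They were chosen by name, and all 10 were present among the 16755 genes of the deposited table. Cells were sorted by flow cytometry from lungs of wild-type mice (genotype tag C57BL6 WT, here WT) and of osteopontin knock-out mice (Spp1-/-, tag C57BL6 OPNKO, here OPNKO), with 2 libraries per genotype. All 4 samples are tagged with bleomycin, an antitumour drug used in mice to provoke lung injury and fibrosis, and their columns name day 14, although the treatment protocol in the labels says that none was given. The labels do not state age, hour of collection, pooling of animals or the deleted part of Spp1. Title and genotype tag disagreed for 2 samples, and groups followed the titles. Whether replicates were separate animals is not stated, so the p-values rest on a spread between libraries that may be technical.

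The clock is a transcriptional feedback loop present in nearly every mammalian cell. BMAL1 (encoded by Arntl) and CLOCK form a heterodimer that binds E-box sequences and switches on the Per, Cry, Nr1d and Dbp genes; PER and CRY proteins then repress that heterodimer. The nuclear receptors REV-ERBα and REV-ERBβ (Nr1d1 and Nr1d2) repress Arntl through ROR elements, at which the ROR receptors activate, and DBP activates genes through D-boxes. Arntl transcripts therefore peak in opposite phase to those of Nr1d1, Nr1d2, Dbp and the Per genes in most tissues. In macrophages the loop is known for daily variation in cytokine release and phagocytosis.

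Promoter windows of the genes measured here were searched for exact copies of a few such elements. RefSeq sequences on GRCm38.p6, from 250 bases before to 50 bases after a start site, were found for 9 of the 10 genes, in 13 windows; Per2 had none. On both strands, the canonical E-box CACGTG was found in the windows of Cry1 and Per1, and in 7.15% of all 32817 windows. The ROR element TAGGTCA was found in 1 Arntl window and in 2.61% of all windows. The D-box TTATGTAA occurred at 2 places in the Per3 window and in 0.935% of all windows. The CpG form of the D-box, TTACGTAA (0.119% of all windows) and the cAMP response element TGACGTCA (1.79%) were not found in the members' windows. Of the motifs searched, overlaps between different motifs did not occur in these windows. The 4 windows with a match are shown with that of Nr1d1, the member with the lowest fold change. They are Arntl chr7:113207261-113207560 (plus strand), Cry1 chr10:85185005-85185304 (minus), Per1 chr11:69098699-69098998 (plus), Per3 chr4:151044616-151044915 (minus) and Nr1d1 chr11:98775328-98775627 (minus). Each is written 5′ to 3′ on the gene's strand, and capitals mark the motif matches.
Arntl: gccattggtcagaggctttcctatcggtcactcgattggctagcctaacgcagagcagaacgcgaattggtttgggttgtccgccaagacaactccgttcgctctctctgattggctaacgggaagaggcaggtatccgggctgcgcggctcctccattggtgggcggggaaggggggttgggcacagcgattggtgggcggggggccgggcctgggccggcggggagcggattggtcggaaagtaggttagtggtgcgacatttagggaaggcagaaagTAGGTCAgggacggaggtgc
Cry1: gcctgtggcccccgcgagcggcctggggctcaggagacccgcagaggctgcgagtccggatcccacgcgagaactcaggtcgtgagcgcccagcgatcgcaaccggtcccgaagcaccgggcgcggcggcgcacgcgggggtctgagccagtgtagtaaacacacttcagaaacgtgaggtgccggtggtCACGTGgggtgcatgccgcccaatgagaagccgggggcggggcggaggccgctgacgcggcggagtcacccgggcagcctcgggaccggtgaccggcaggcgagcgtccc
Per1: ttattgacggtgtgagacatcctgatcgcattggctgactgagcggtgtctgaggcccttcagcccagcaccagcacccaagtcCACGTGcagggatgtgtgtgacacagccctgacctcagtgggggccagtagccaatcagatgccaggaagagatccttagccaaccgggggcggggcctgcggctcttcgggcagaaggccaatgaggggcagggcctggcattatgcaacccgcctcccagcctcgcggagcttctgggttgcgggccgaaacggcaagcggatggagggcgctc
Per3: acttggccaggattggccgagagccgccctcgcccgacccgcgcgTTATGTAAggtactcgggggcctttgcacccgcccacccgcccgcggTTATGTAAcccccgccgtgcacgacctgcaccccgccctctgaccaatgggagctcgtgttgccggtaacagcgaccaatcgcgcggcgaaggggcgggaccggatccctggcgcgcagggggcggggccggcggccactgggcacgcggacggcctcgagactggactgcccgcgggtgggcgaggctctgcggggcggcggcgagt
Nr1d1: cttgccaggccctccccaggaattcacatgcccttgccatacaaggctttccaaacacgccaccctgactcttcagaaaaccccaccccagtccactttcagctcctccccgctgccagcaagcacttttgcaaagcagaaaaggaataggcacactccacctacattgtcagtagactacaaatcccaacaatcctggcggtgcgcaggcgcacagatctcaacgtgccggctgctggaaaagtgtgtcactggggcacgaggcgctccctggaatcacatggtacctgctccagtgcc
The matches began 31 bases downstream of the start site in Arntl, at -60 in Cry1, at -166 in Per1 and at -205 and -158 in Per3. A match describes letters in a window and not a bound site. Variant forms of an element and those outside the windows were not searched, so a window without a match does not show that a gene lacks the element.

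Depth ranged from 35793800 to 44759630 gene-assigned reads per library. Spp1 followed the titles, with normalized read counts (reads divided by a size factor per library) of 545719 and 606517 in WT and 4106 and 3847 in OPNKO. All 12 markers of alveolar macrophages were detected in every library, among them Siglecf, Marco and Itgax. Of the 12, 2 were higher in OPNKO (Pparg and Krt79) and 2 lower (Car4 and Ear2). The summed level of the 12 was 950252 to 953395 in WT and 617232 to 738684 in OPNKO. Chil3 alone had 634850 and 643790 in WT and 311109 and 411474 in OPNKO (limma adjusted p = 0.0528). Markers of other cell types also differed between the groups or in 1 library. Of 12 T lineage markers, 8 were higher in OPNKO, and their summed level was 5154 to 5193 in WT and 15370 to 21458 in OPNKO. Of 9 B and plasma cell markers 4 were lower, with sums of 30443 to 40583 in WT and 6880 to 7173 in OPNKO. Of 10 monocyte-derived macrophage markers 2 were lower, and 9 of the 10 had negative log2 fold changes (median -0.26). Their sums were 276416 to 298676 in WT and 196753 to 313229 in OPNKO. Ccr2, 1 of the 2 lower genes, had 16844 and 17342 in WT and 8014 and 7537 in OPNKO (limma adjusted p = 0.00079). Against WT replicate 1, fibroblast markers were higher in WT replicate 2 for 8 of 9 genes (median log2 gap 2.35), and endothelial markers for 7 of 7 (median log2 gap 1.89). In bulk RNA, fewer cells of a type and less RNA per cell cannot be told apart.

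No clock member passed the test between genotypes. By limma on log2(normalized count + 1), adjusted over 16431 genes, 0 of the 10 members passed an adjusted p of 0.05 in either direction, where 4.32% of all genes tested did (2.33% higher and 1.98% lower in OPNKO). The adjusted p-values ran from 0.0713 for Arntl to 0.807 for Dbp. At an unadjusted p under 0.05 there were 5 members (Arntl, Clock, Per2 and Cry1 higher, Nr1d1 lower), where the share over all genes was 21.2% (11.6% higher and 9.54% lower). The groups did not overlap for 7 members, 4 higher and 3 lower in OPNKO; over all genes tested this held for 52.7%, 27.7% higher and 25.0% lower. With edgeR's quasi-likelihood test on the recovered reads 0 members passed, where 4.96% of all genes tested did. Its unadjusted p was under 0.05 for 5 members, and for 3336 of all 13991 genes tested. With DESeq2 on the recovered reads 0 members passed, where 8.17% of all genes tested did. Its unadjusted p was under 0.05 for 4 members, and for 2522 of all 13766 genes tested. The authors' deposited adjusted p was under 0.05 for 0 members, and for 4.34% of all 16755 genes. Its lowest value among the members was 0.140, for Per2. The median log2 fold change of the members was -0.0041, and that of all genes tested was -0.00056. Leaving Dbp aside, the members' 95% intervals reached down to 0.473-fold (Nr1d1) and up to 1.71-fold (Per2). A test that misses the threshold does not show that the genotypes were alike. Because the hour of collection is not in the labels, a difference of hour between the groups cannot be told apart from one of genotype.

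**Figure D1:**
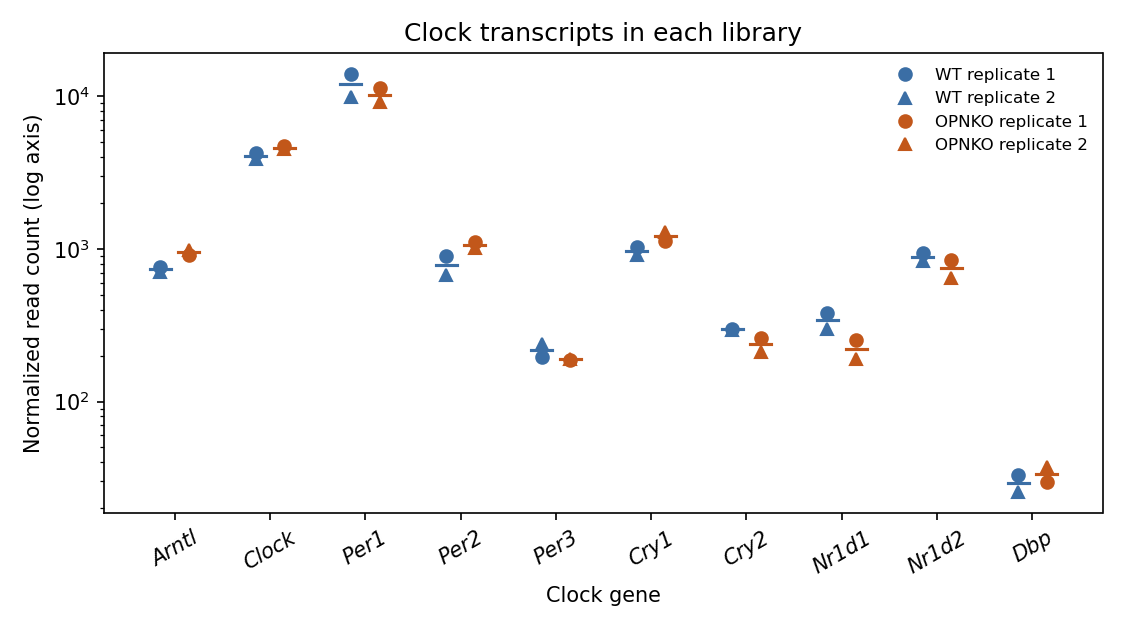
Normalized read counts (log axis) of the 10 clock genes in each of the 4 libraries; horizontal bars are the means of the 2 libraries of a genotype. Per1 lies between 9248 and 14056 and Dbp between 25.4 and 37.3, and the groups of Arntl, Clock, Per2, Cry1, Per3, Cry2 and Nr1d1 do not overlap.

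Levels differed between members far more than between genotypes. Per kilobase of exon, the order of the mean normalized count over the 4 libraries was Per1 (1979), Cry1 (328), Clock (316), Per2 (157), Nr1d2 (151), Arntl (112), Nr1d1 (91.4), Cry2 (42.4), Per3 (21.2) and Dbp (10.5). The ranges of Cry1 and Clock overlapped, as did those of Per2 and Nr1d2, of Nr1d2 and Arntl, and of Arntl and Nr1d1. The other neighbours in this order were apart in all 4 libraries. Per1 had a higher mean count than 96.0% of the genes tested, and Dbp than 25.4%.

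The activators Arntl and Clock were both higher in the OPNKO libraries, without passing the test. Arntl (ENSMUSG00000055116; GRCm38 chromosome 7, 113207465 to 113314126, plus strand), which encodes BMAL1, had normalized counts of 759 and 711 in WT against 918 and 992 in OPNKO. Its groups did not overlap, and the difference was 1.30-fold (95% interval 1.12 to 1.51; log2 fold change 0.38 ± 0.09 SE, n = 2 per group, limma adjusted p = 0.0713). Clock (chromosome 5, 76209868 to 76304792, minus strand) encodes the partner of BMAL1. It stood at 4229 and 3886 in WT and at 4721 and 4521 in OPNKO. The difference was 1.14-fold (95% interval 1.02 to 1.28, limma adjusted p = 0.180). Both OPNKO libraries lay above both WT libraries for the 2 activators.

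The 3 Per genes, the repressors whose protein accumulates and decays each day, did not move one way. Per2 (chromosome 1, 91415982 to 91459324, minus strand) had counts of 895 and 671 in WT and 1105 and 1013 in OPNKO. Its log2 fold change of 0.45 ± 0.14 (SE, n = 2 per group) was the highest of the 10 members (limma adjusted p = 0.128). Per1 (chromosome 11, 69095217 to 69109960, plus strand) is the member that cAMP signalling and glucocorticoids induce within minutes to hours. It stood at 14056 and 9954 in WT and at 11323 and 9248 in OPNKO. These groups overlapped, and the log2 gap between the WT libraries (-0.50, replicate 2 minus replicate 1) was larger than the genotype difference (log2 fold change -0.21 ± 0.16 SE, limma adjusted p = 0.512). Without WT replicate 1 the log2 fold change of Per1 was 0.04, so its direction rests on that library. Per3 (chromosome 4, 151003652 to 151044665, minus strand), whose loss affects mouse rhythms less than that of Per1 or Per2, had counts of 195 and 240 in WT and 188 and 189 in OPNKO. Both OPNKO libraries were lower, but WT replicate 1 differed from them by less than from WT replicate 2 (log2 fold change -0.20 ± 0.17 SE, limma adjusted p = 0.565; -0.05 without WT replicate 2). The fibroblast and endothelial markers were higher in that WT replicate 2, and their part in the Per3 value was not tested.

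Of the cryptochromes, the strongest repressors of the heterodimer, Cry1 was higher and Cry2 lower in OPNKO, and neither passed. Cry1 (chromosome 10, 85131700 to 85185064, minus strand) had 1030 and 916 in WT and 1137 and 1298 in OPNKO. Its difference was 1.25-fold (95% interval 1.06 to 1.48; limma adjusted p = 0.131), and the groups did not overlap. Cry2 (chromosome 2, 92403646 to 92434043, minus strand) had 301 and 296 in WT and 263 and 213 in OPNKO. It was also apart between groups, at 0.794-fold (95% interval 0.614 to 1.03, limma adjusted p = 0.281). The OPNKO libraries differed more from each other than the WT libraries did. The exons of Cry2 overlap those of the noncoding gene D930015M05Rik on the other strand by 295 bases. Arntl exons overlap those of the antisense gene Gm45355 by 33 bases. Libraries were stranded per the labels, but the strand setting of the counting is not stated, so antisense reads could be included.

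Both REV-ERB genes, repressors of Arntl, had negative fold changes. Nr1d1 (ENSMUSG00000020889; chromosome 11, 98767932 to 98775333, minus strand) had 382 and 300 in WT against 253 and 190 in OPNKO. Its groups did not overlap, and its log2 fold change of -0.62 ± 0.20 (SE, n = 2 per group) was the greatest in size among the members (0.651-fold, 95% interval 0.473 to 0.894; limma adjusted p = 0.129). The exons of Nr1d1 overlap those of the thyroid hormone receptor gene Thra, on the opposite strand, by 263 bases. Thra had counts of 818 and 768 in WT and 678 and 739 in OPNKO (log2 fold change -0.16, limma adjusted p = 0.381). Its fold change was smaller than that of Nr1d1, and the assignment of reads in the shared bases is not stated. Nr1d2 (chromosome 14, 18204054 to 18239127, minus strand) had 936 and 838 in WT and 842 and 649 in OPNKO. Its groups overlapped, and its log2 fold change was -0.26 ± 0.14 (SE, with a limma adjusted p of 0.329). Without OPNKO replicate 2 the log2 fold change of Nr1d2 was -0.07, and without OPNKO replicate 1 it was -0.45.

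Dbp, the output factor that swings most widely in many tissues, was the lowest member in every library and was counted from few reads. Dbp (chromosome 7, 45705088 to 45710203, plus strand) had normalized counts of 32.9 and 25.4 in WT and 29.7 and 37.3 in OPNKO, from 30, 26, 26 and 30 reads. The exact Poisson interval of 26 reads was 17.0 to 38.1 and that of 30 reads 20.2 to 42.8 (95%, counting error only). The read counts of all 4 libraries lay within both intervals, the groups overlapped, and the 95% interval of the fold change ran from 0.624 to 2.11 (limma adjusted p = 0.807). Dbp exons overlap those of Sphk2, on the opposite strand, by 539 bases, and Sphk2 had 1731 to 1997 normalized counts, far above Dbp.

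**Figure D2:**
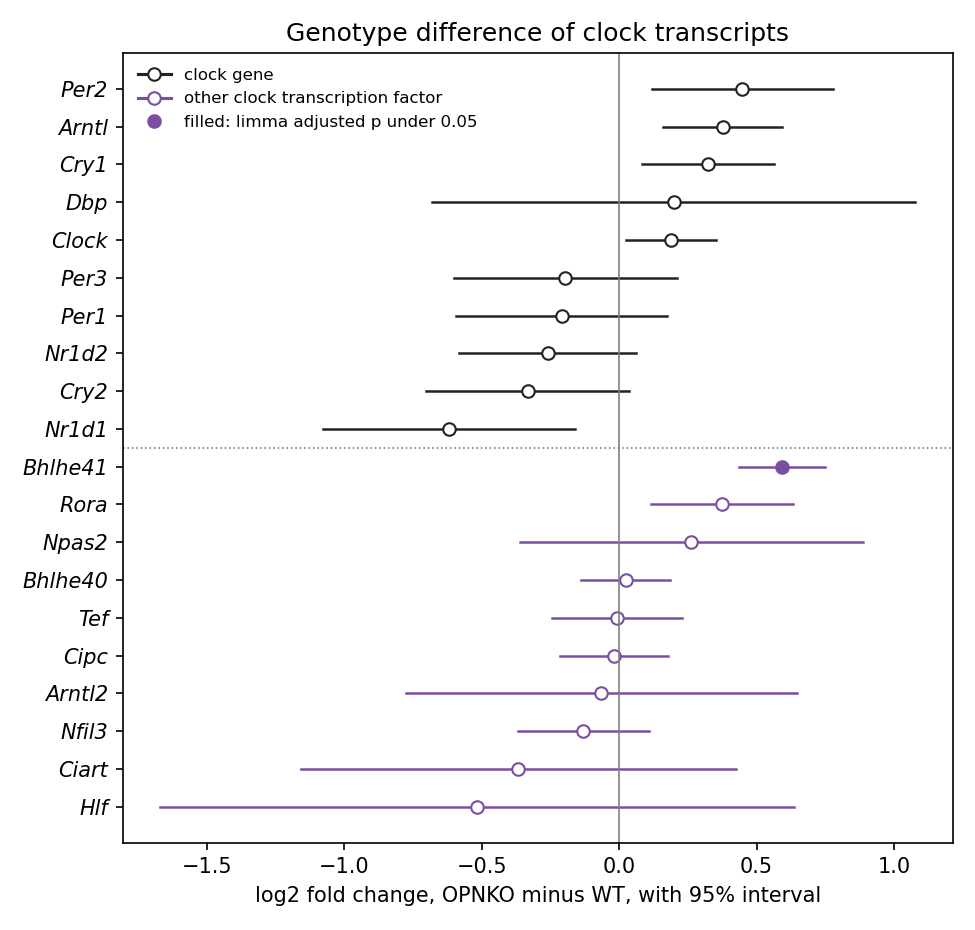
Log2 fold changes of OPNKO minus WT with 95% intervals from limma, for the 10 clock genes (above the dotted line) and 10 other clock transcription factors; the filled point passed an adjusted p of 0.05. Clock members span -0.62 (Nr1d1) to 0.45 (Per2) with no filled point, while Bhlhe41 (0.59) is filled.

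Each member was also set against Arntl within its own library, and the result was near that of genes in general. These ratios are descriptions with no test: 2 libraries against 2 cannot give an exact two-sided permutation p below 0.333, and all share Arntl, which was itself higher in both OPNKO libraries. Of the other members, Per1, Per3, Cry2, Nr1d1, Nr1d2 and Clock were lower relative to Arntl in both OPNKO libraries than in either WT library. This also held for 69.3% of all 16430 other genes tested, so it is not a result about the clock genes; 5.16% were higher relative to Arntl, and 0 members were. The ratios of Per2, Cry1 and Dbp to Arntl overlapped between the groups. The log2 ratio of Nr1d1 to Arntl (counts not per length) was -0.99 and -1.25 in WT and -1.86 and -2.38 in OPNKO, and that of Clock to Arntl was 2.48 and 2.45 in WT against 2.36 and 2.19 in the OPNKO libraries. The mean difference was -0.999 for Nr1d1 and -0.19 for Clock.

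Outside the 10 members, 1 transcription factor gene of the wider clock, Bhlhe41, rose in OPNKO, of 10 tested in a list of 11 (Rorb was not analysed here), and 0 fell, beside 2.33% higher and 1.98% lower over all genes tested. Bhlhe41, which encodes DEC2, a repressor at E-boxes that also serves alveolar macrophage identity, had 7640 and 8189 in WT and 11655 and 12207 in OPNKO. It rose 1.51-fold (95% interval 1.35 to 1.68; log2 fold change 0.59 ± 0.07 SE, limma adjusted p = 0.00631). Its paralog Bhlhe40 had 22296 to 23765 counts in all 4 libraries, with a log2 fold change of 0.02 (95% interval -0.14 to 0.18). Rora, which encodes an activator at ROR elements, had 1987 and 1587 in WT and 2374 and 2229 in OPNKO and did not pass (log2 fold change 0.37, limma adjusted p = 0.111). The D-box factor genes Tef (log2 fold change -0.01), Hlf (-0.52, at 10.3 to 21.5 counts) and Nfil3 (-0.13) did not pass either. The list's median log2 fold change was -0.013. The call of Bhlhe41 was lost without WT replicate 1 (limma adjusted p = 0.155) and without WT replicate 2 (0.109), and its log2 fold change was 0.54 to 0.64 when 1 library was left out.

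Genes that modify clock proteins gave no call by limma. Of 15 kinases, ubiquitin ligases, deubiquitinases and cofactors tested, 0 passed by limma (4.32% over all genes), 0 by edgeR (4.96%) and 1, Prkaa1, by DESeq2 (8.17%). At an unadjusted p under 0.05 by limma there were 2, against 21.2% over all genes. Prkaa1, a catalytic subunit of the AMP-activated kinase that marks CRY1 for degradation, had 3986 and 4021 in WT and 4758 and 4795 in OPNKO (log2 fold change 0.25 ± 0.06 SE, limma adjusted p = 0.0623). The deacetylase gene Sirt1 (0.20, limma adjusted p = 0.208), the casein kinase gene Csnk1a1 (-0.13, 0.277) and the deubiquitinase gene Usp2 (-0.20, 0.318) followed in order of p, as log2 fold changes with adjusted p. The list's median log2 fold change was 0.0039.

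Some genes that clocks and glucocorticoid hormone drive in many tissues did change. Of 18 rhythmic output genes tested, 2 rose (Pdk4 and Klf10) and 2 fell (Fkbp5 and Klf9), and the list's median log2 fold change was -0.06. Over all genes tested, 2.33% rose and 1.98% fell, with a median of -0.00056. Of 12 genes of the glucocorticoid response, 4 fell (Fkbp5, Klf9, Mt2 and Sult1a1) and 1 rose (Pdk4), beside the same shares over all genes, and the list's median was -0.27. The 2 lists share 4 genes, among them the called Fkbp5, Klf9 and Pdk4. Both lists were chosen with earlier results of these data known, so counts beside those shares are no evidence of enrichment. Fkbp5, a chaperone partner of the glucocorticoid receptor and a classical target of it, had 6365 and 7246 in WT and 3363 and 4023 in OPNKO. It fell by 0.88 ± 0.10 on the log2 scale (SE, n = 2 per group, limma adjusted p = 0.00686). Klf9, a transcription factor gene induced by glucocorticoids, fell from 2950 and 2346 to 1723 and 1655 (log2 fold change -0.64, limma adjusted p = 0.0252). The metallothionein gene Mt2 went from 2694 and 2312 to 1396 and 1825 (-0.64, 0.0457), and the sulfotransferase gene Sult1a1 from 155 and 224 to 50.2 and 82.2 (-1.52, 0.0427), as log2 fold changes with limma adjusted p. In the opposite direction, Pdk4, a kinase gene that restrains pyruvate oxidation, rose from 169 and 113 to 276 and 326 (log2 fold change 1.11, limma adjusted p = 0.0417). Klf10, a zinc finger factor gene and target of the clock, rose from 5404 and 4941 to 6440 and 6911 (0.37, 0.0383). The receptor gene Nr3c1 (log2 fold change 0.15) and Tsc22d3, another glucocorticoid target (-0.30), did not pass. Without WT replicate 1 or without WT replicate 2 none of these 6 calls passed, in fits that called 4 and 11 of all genes against 709. Without OPNKO replicate 1 Fkbp5 passed alone, and without OPNKO replicate 2 Fkbp5, Mt2 and Sult1a1 did. All 6 kept their direction over those 4 fits, with log2 fold changes of -1.01 to -0.76 for Fkbp5, 0.83 to 1.40 for Pdk4 and 0.30 to 0.43 for Klf10. Over the same fits the limma adjusted p was 0.0046 to 0.165 for Fkbp5, 0.0682 to 0.175 for Klf9, 0.0131 to 0.312 for Mt2, 0.0298 to 0.369 for Sult1a1, 0.0864 to 0.285 for Pdk4 and 0.0654 to 0.322 for Klf10. Mt2 and Sult1a1 did not pass by edgeR (adjusted p = 0.0519 and 0.0507) or by limma among genes of mean value 50 or more (0.0581 and 0.0533). In the authors' deposited table Sult1a1 did not pass (adjusted p = 0.111), while the other 5 did.

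**Figure D3:**
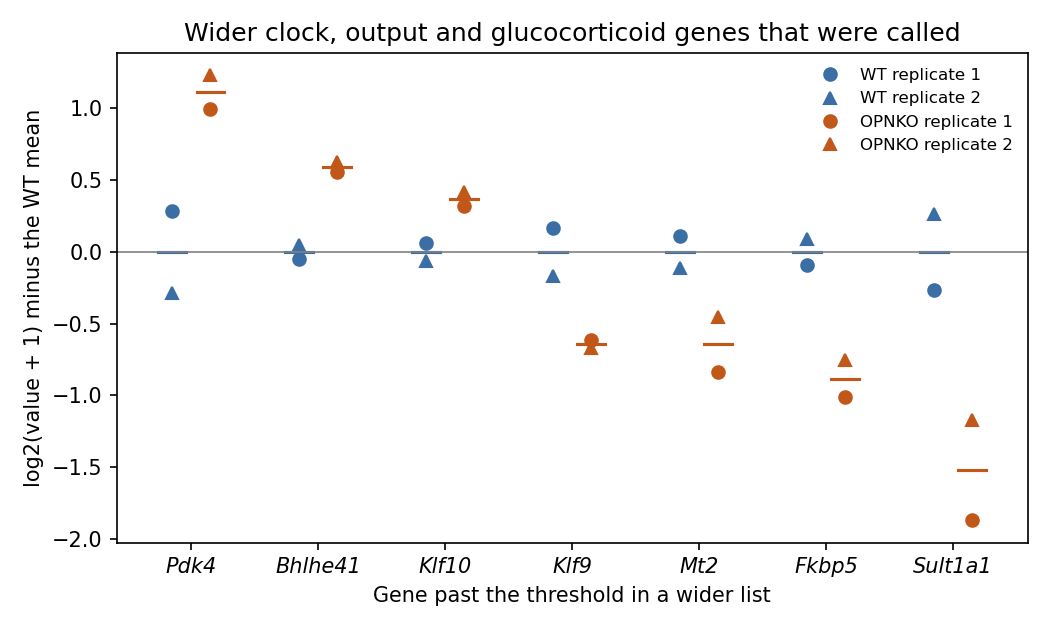
Log2(normalized count + 1) minus the WT mean of the same gene, for the 7 genes of the wider lists that passed the limma threshold, in each of the 4 libraries; bars are group means. The OPNKO libraries of Pdk4, Bhlhe41 and Klf10 lie above both WT libraries, and those of Klf9, Mt2, Fkbp5 and Sult1a1 lie below them.

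Immediate-early genes, a class whose speed of induction Per1 shares and which tissue dissociation can raise, did not pass by limma in either direction. Of 14 tested, 0 were called by limma (4.32% over all genes), 0 by edgeR (4.96%) and 2, Egr1 and Egr2, by DESeq2 (8.17%). At an unadjusted p under 0.05 by limma there were 2, against 21.2% over all genes. Egr2, a zinc finger factor gene, had 9671 and 9265 in WT and 15748 and 11434 in OPNKO (log2 fold change 0.50, limma adjusted p = 0.0907). Egr1 had 1283 and 1591 in WT and 2667 and 1790 in OPNKO (0.61, 0.117), and the next by p were the phosphatase gene Dusp1 (-0.14, 0.409) and Jun (-0.19, 0.477). In 12 of the 14 genes OPNKO replicate 2 was lower than OPNKO replicate 1, by a median of 0.40 for the list (log2 gap -0.40), and Per1 had a gap of -0.29 between the same libraries. Between the WT libraries the list's median gap was -0.09, while that of Per1 was -0.50. The part of this class in the Per1 values was not tested. Which genes of this list passed changed with the OPNKO library that was left out, and such fits leave 1 sample in a group.

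The genes whose profile over the 4 libraries was most like that of Arntl were Daam1, Thoc2 and Bcl6. Likeness was the root mean square difference of mean-centred log2(normalized count + 1), which was 0.0052, 0.0055 and 0.0087, against 0.195 for the size of the Arntl profile itself. Daam1 and Thoc2 passed the test between genotypes (limma adjusted p = 0.0330 and 0.0340), and Bcl6 did not (0.0639). Among 11623 genes compared, 134 lay within 0.05 of Arntl, so such likeness over 4 libraries was not limited to the genes named. For Dbp the nearest were Neu3 (0.0235), Nfatc2ip (0.0317) and Micu3 (0.0326), none of which passed between genotypes (limma adjusted p of 0.695, 0.451 and 0.540). Among 11624 genes compared, 15 lay within 0.05 of Dbp. The Dbp profile itself rests on 26 to 30 reads per library, within counting error, so likeness to it says little.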

How the data were processed

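RNA was sequenced in bulk from 4 of 10 stranded mRNA libraries pooled on 1 lane, per the labels' protocols. The submitters' processing notes name HTSeq 0.6.1p1, STAR 2.4.1d, Trim Galore 0.4.0 and edgeR, with no role. No source used here gives the genome build, annotation or strand setting. Per the file headers, the authors deposited a normalized expression value per library, treated as a signal that is proportional to read count: 100% of values were whole multiples of the value of 1 read (tolerance 0.001 reads). The deposited log2 fold change with its standard error, Wald score, p-value and adjusted p-value are the authors' own, per the file headers. The table's 2 unlabelled columns were left out.

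The main test was limma 3.58.1 with a mean-variance trend (R 4.3.3) on log2(value + 1), as OPNKO minus WT without covariates, for the 16431 genes whose mean value reached 1. P-values were adjusted by Benjamini-Hochberg over all of them and called under 0.05. Adding 1 understates fold changes of low genes such as Dbp and Hlf. Count tests on recovered reads used edgeR 4.0.16 and DESeq2 1.42.0. Counts were also simulated for 16755 genes, with changed genes drawn from mean values of at least 50. There limma found 68.7% of 1.5-fold and 86.6% of 2-fold changes, and 10 of its 177 calls were false. Each gene and library was drawn independently, with no shift shared by many genes of 1 library. These rates may therefore not hold for the libraries here. Positions and exon lengths came from GENCODE M21 (16542 identifiers matched). Members and lists were chosen with earlier results of these data known. Named genes were the members, every called gene of a clock list or, where none was called, the 4 with the smallest p, and 3 genes most like Arntl and Dbp. Other named genes (Spp1 aside) were chosen after their values were seen. Some genes of the clock lists are not reported here and were left out of the list counts. Counting intervals cover counting error only. Lists of neutrophil (1 of 5 tested lower), dendritic cell (1 of 9 lower), epithelial (1 of 8 lower), endothelial (1 of 7 higher) and fibroblast markers (0 of 9 called, 3 lower at an unadjusted p under 0.05) were also counted. Tables and figures used Python 3.11.15, pandas 2.3.3, numpy 2.4.6, scipy 1.17.1 and matplotlib 3.10.9.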

Additional observations from a re-analysis of the deposited data

How the results depend on the processing

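Of 129 member fold changes recomputed under the alternatives, 125 kept their direction and stayed short of the threshold, 3 passed it (Arntl, Per2 and Nr1d1, all with the replicate number as a block) and 1 reversed: Per1 had log2 fold changes from -0.458 (without WT replicate 2) to 0.040 (without WT replicate 1) when 1 library was left out. Dbp was not tested among genes of mean value 50 or more.

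The replicate numbers were not shown to pair samples (correlation of same-numbered deviations -0.03 across 11624 genes). With the replicate block, 3 members passed (limma adjusted p = 0.0394 for Arntl, 0.0209 for Per2 and 0.0344 for Nr1d1), beside 1566 of all genes, 2 other clock factors (Bhlhe41 and Rora, against 1), 1 modifier (Prkaa1) and 2 immediate-early genes. DESeq2 called 1124 genes, 1 modifier and 2 immediate-early genes. With no filter, so with 80 rows at 0 reads in all libraries in the fit, 1 gene passed, and 0 of the other clock factors, the rhythmic output list and the glucocorticoid list. The glucocorticoid list had 3 calls among genes of mean value 50 or more and 3 by edgeR, against 5. The cause of these shifts was not tested.

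Leaving out 1 library, whose group then has 1 sample assumed to vary like the other group, gave 4 to 545 calls over all genes against 709 (4 and 11 when WT replicate 1 or 2 was missing, 545 and 405 when OPNKO replicate 1 or 2 was). It gave 0 to 0 for the members and the modifiers, 0 to 1 for the other clock factors, 0 to 1 for the rhythmic output genes, 0 to 3 for the glucocorticoid list and 0 to 3 for the immediate-early genes. Depth limits Dbp: the mean distance from its read count to the bounds of the exact Poisson interval was 37.6% to 40.6% of the reads of a library, against 1.74% to 2.28% for Per1.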

Other observations

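The fold changes of Per1 and Per2 and those of Cry1 and Cry2 had opposite signs, while Nr1d1 and Nr1d2 were both negative, as were Per1 and Per3. The first 2 pairs were chosen after the values were seen and are given with no test, and the sign of Per1 turned without WT replicate 1 (log2 fold change 0.04). The log2 ratio of Per1 to Per2 within a library was 3.97 and 3.89 in WT and 3.36 and 3.19 in OPNKO, with a mean of 3.93 ± 0.06 in WT and 3.27 ± 0.12 in OPNKO (SD, n = 2). The log2 ratio of Cry2 to Cry1 was -1.78 and -1.63 in WT against -2.11 and -2.61 in the OPNKO libraries. Its groups had to be apart, since Cry1 was higher and Cry2 lower in both OPNKO libraries than in either WT library. For Nr1d1 to Nr1d2, whose signs were the same, the ratio was -1.29 and -1.48 in WT and -1.73 and -1.77 in OPNKO. How often ratios of other gene pairs were apart between the groups was not counted, so these ratios are not a result about the clock genes. Of single genes tested, 52.7% were apart, and of ratios to Arntl 69.3% were lower and 5.16% higher in OPNKO. The ratio of Per1 to Per2 varied less between the WT libraries than either gene did alone, since both were lower in WT replicate 2 (log2 gaps of -0.50 and -0.41). This did not hold between the OPNKO libraries. There the ratio (3.36 and 3.19) varied more than Per2 alone (log2 gap -0.12) and less than Per1 (-0.29).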
